A study of Mus musculus with 15 samples.

Results

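Cells treated with berry gold nanoparticles were compared with cells treated with the plain berry extracts, using blackberry and blueberry together as a 2 by 2 layout. The cells were 4T1, a mouse mammary carcinoma line labelled wild type and used as a model of triple-negative breast cancer. Of the 5 conditions 4 entered: plain blackberry extract (BLA), plain blueberry extract (BLU), gold nanoparticles made with blackberry extract (BLA-A) and gold nanoparticles made with blueberry extract (BLU-A). They make up 12 of the 15 columns of the deposited count table, 3 for each condition. The 3 remaining columns, from untreated cells, served only as a reference level. All treated cells received a single common concentration, 1 day after seeding. An equal concentration need not mean an equal amount of berry compounds in extract and particle. No library of cells given gold particles without berry compounds was analysed here, so the gold and the particle form cannot be told apart.

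In green synthesis, plant compounds reduce a gold salt to metal and stay bound to the particle surface, so cells meet the plant compounds on a particle that they can take up whole. Replication-dependent histone genes, the group in which both fruits gave their clearest common shift, encode the core and linker histones that package newly made DNA. They are short genes without introns, transcribed in S phase, and their mRNAs end in a conserved stem-loop in place of a poly(A) tail.

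Within each condition the 3 columns differed by less than sampling noise, with a chi-square per degree of freedom from 0.0951 in BLA to 0.475 in BLA-A, where separate draws would give about 1. They were therefore averaged and counted as 1 library. Library totals ran from 25613700 counts in BLA-A to 26956300 in BLA, and 3 counts corresponded to 0.111 to 0.117 CPM, the count scaled to a fixed library size. The labels give a different batch date to every column, so date and condition cannot be told apart. The BLA-A library stood apart in its composition, with a trimmed-mean (TMM) scaling factor of 0.870 against 1.03 to 1.06 in BLA, BLU and BLU-A. Scaling by total counts moved the median log2 fold change of all genes to -0.22 in BLA-A against BLA and to -0.01 in BLU-A against BLU, so fold changes are given relative to the TMM median, which was at 0. Epithelial markers of the 4T1 line summed to 2553, 2696, 4082 and 2621 CPM for BLA, BLU, BLA-A and BLU-A, and 10 of 12 passed the filter on level, Krt14 and Ly6a being below it. Lymphocyte markers summed to 0.359 to 1.61 CPM, with 3 of 9 genes at 0 in the 4 libraries and 1 past the filter. Endothelial markers summed to 4.53 to 10.2 CPM, and macrophage markers to 19.3 to 33.2 CPM with 2 of 10 genes at 0. The 9 fibroblast markers summed to 86.2 to 104 CPM, with 2 of the 9 at 0.

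A gene was tested when it reached 1 CPM in at least 1 of the 4 libraries, which left 17030 genes. The log2 fold change was taken on CPM plus 0.5, and a gene was counted as shifted when it passed 2-fold. In BLA-A against BLA, 2293 genes were higher (13.5% of those tested) and 1956 lower (11.5%), a balance that turned to 1612 higher and 2818 lower with total counts. In BLU-A against BLU the numbers were 499 (2.93%) and 610 (3.58%). In size, the median log2 fold change was 0.55 for blackberry and 0.23 for blueberry. Blackberry thus gave the wider spread of fold changes, and each fold change sets 1 library against 1 other, with no replicate check.

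Both fruits moved past 2-fold the same way in 212 genes, 81 higher (0.476%) and 131 lower (0.769%). The 81 shared higher genes were 3.53% of the BLA-A list and 16.2% of the BLU-A list. Those shares are near the 2.93% and 13.5% of all genes that were higher in BLU-A and in BLA-A. The 131 shared lower genes were 6.7% and 21.5% of the lists of lower genes, beside 3.58% and 11.5% of all genes. In 135 genes the fruits moved in opposite ways, 48 of them higher in BLA-A and lower in BLU-A (0.282%) and 87 the reverse (0.511%). Among genes higher in BLU-A, more were thus lower in BLA-A (87) than higher (81). At a mean of at least 10 CPM this turned to 7 lower and 14 higher. Across all genes tested the fold changes of the 2 fruits had a Pearson r of 0.13, and of 0.23 over the 9768 genes with a mean of at least 10 CPM. The genes share their 4 libraries and the TMM scaling, and are not independent replicates. Most of the shared and opposite genes were faint, since 37 of the 81 shared higher genes, 100 of the 131 shared lower genes and 88 of the 135 opposite genes had a mean under 2 CPM, as did 3522 of all genes. At a mean of at least 10 CPM there were 14 genes higher in both particle libraries, 1 lower in both and 8 opposite.

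**Figure D1:**
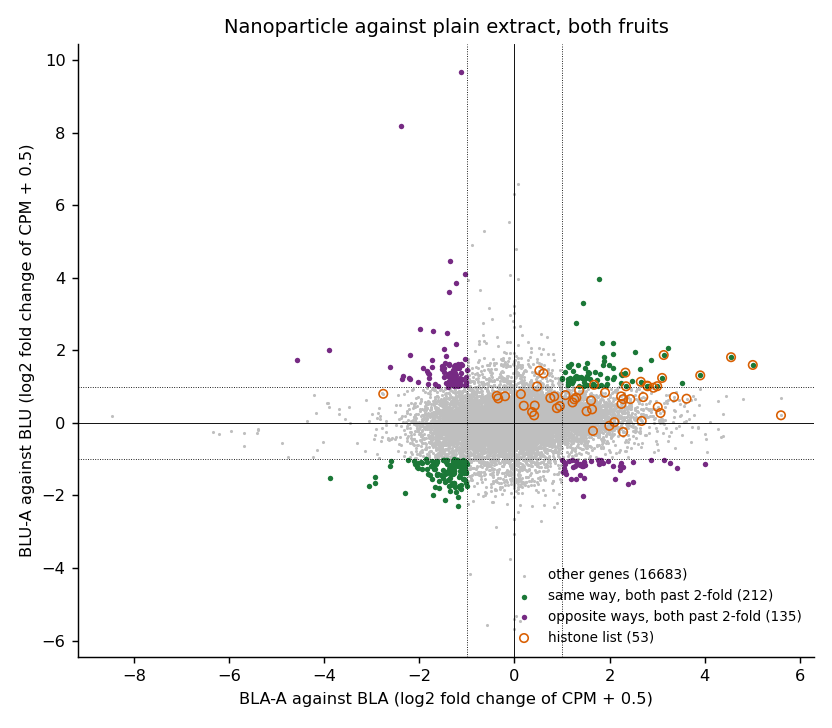
Log2 fold change of every gene tested, BLA-A against BLA on the x axis and BLU-A against BLU on the y axis, both on CPM plus 0.5, with 2-fold marked by dotted lines. The 53 histone genes, circled, lie mostly to the upper right, with 46 above 0 on both axes, while the 135 opposite genes sit in the upper left and lower right corners.

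In the 2 by 2 model fitted with edgeR, with particle form and fruit as factors, the question was which genes the particle form moved alike in both fruits. The fit has 1 residual degree of freedom, so disagreement between the fruits is its only measure of error, and the coefficient of variation it estimated was 0.377. The quasi-likelihood test called 2 genes at a Benjamini-Hochberg adjusted p of 0.05, both higher with particles (0.0117% of genes), and 0 lower. At an unadjusted p under 0.05 it called 1012 genes (5.94%), and DESeq2 called 22 genes after adjustment. Fitted without the fruit term, the same test called 0 genes without the BLA library, 1 without BLU, 57 without BLA-A and 4146 without BLU-A, so its calls rest on which library is left in. Scaling by total counts gave 117 calls, 83 higher and 34 lower.

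In both called genes the BLU-A library alone was high. Myom2, which encodes a structural protein of the muscle sarcomere, stood at 0 CPM with BLA, 0.772 with BLU, 0.0299 with BLA-A and 122 with BLU-A (adjusted p = 0.00586, edgeR quasi-likelihood test). Its 2 blackberry libraries were both under the level of 3 counts, so only blueberry showed a difference, with a log2 fold change of 6.58. Dcaf12l2, an X-linked gene of a WD-repeat protein, had 0 counts in BLA, BLU and BLA-A and 39.1 CPM in BLU-A (adjusted p = 0.0264, edgeR quasi-likelihood test). Against the floor of 3 counts in BLU this was at least 371-fold higher. Over the alternatives the adjusted p of Myom2 ran from 6.92e-21 to 1.00 (edgeR or DESeq2), and that of Dcaf12l2 from 8.86e-17 to 1.00.

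Of the 8 genes next in p, none passed the adjustment, and 5 were also high in 1 library alone. Ecel1, an endothelin-converting enzyme homologue, was at 28.9 CPM in BLU and at 0, 0 and 0.0741 CPM in BLA, BLA-A and BLU-A (adjusted p = 0.0862, edgeR). Wdr72, a WD-repeat gene needed for enamel formation, was at 40.0 CPM in BLU and between 0.105 and 0.407 CPM elsewhere. The predicted genes Gm57791 and Gm30618 were likewise high in BLU alone, at 22.2 and 32.4 CPM. Gm33292 was high in BLU-A, at 19.9 CPM against 0.807 or less elsewhere. Abhd12b stood at 7.45 CPM in BLU-A and 1.21 in BLA-A, with 0 and 0.0117 CPM in BLA and BLU, and was the sixth, higher with particles in both fruits. The 2 others were the histone genes H3c2 (adjusted p = 0.363, edgeR) and H2bc8 (adjusted p = 0.516, edgeR), where particles were higher in both fruits and no single library stood alone. Over the alternatives their adjusted p ran from 6.91e-07 to 1.00 and from 7.59e-07 to 1.00, and it was below 0.05 in 7 and 8 of 17 settings. DESeq2 gave an adjusted p of 0.000191 for H3c2 and 0.00199 for H2bc8, but also 0.000132 for Wdr72 and 0.00467 for Gm33292, each high in 1 library, and it gave 0.453 for Myom2 and 0.847 for Dcaf12l2.

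Replication-dependent histone genes led the genes that the particle form moved alike. Of the 14 genes with a mean of at least 10 CPM that were past 2-fold higher in both fruits, 12 were histone genes, from a list that has 47 of the 9768 genes at that level. Beside the values, the 3′ ends and promoters of the list are shown here as a description of its members. The stem-loop is a known trait of such genes, so finding it in the list says nothing about the shifts. A hairpin of 16 bases, made of a stem GGNNNT, a loop TNTN and the exact reverse complement of the stem, was searched on the gene's strand in the 200 bases of GRCm39 that follow the stop codon. It was present in 50 of the 53 histone genes tested and in 5 of 13229 other protein-coding genes tested (0.0378%). Among those 5 were H2ac7 and H2ac21, both H2A genes outside the list. Their log2 fold changes in BLA-A and BLU-A were -0.03 and 1.63 for H2ac7 and 1.29 and 0.74 for H2ac21. The missing 3 were H1f0, H2ac22 and H2bc21, of which H1f0 encodes a replacement linker histone made outside S phase. The sites below, with the hairpin in capitals, are from 3 genes of different families that were higher in both particle libraries and from H2ac8 and H4c4, which were lower in BLA-A. They lie at chr13:23936798-23936823 (plus strand), chr13:23756012-23756037 (plus), chr3:96127729-96127754 (minus), chr13:23754837-23754862 (minus) and chr13:23765928-23765953 (plus).
H3c2: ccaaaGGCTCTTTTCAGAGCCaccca
H2bc8: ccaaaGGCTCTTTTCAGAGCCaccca
H2ac20: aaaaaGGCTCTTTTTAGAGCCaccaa
H2ac8: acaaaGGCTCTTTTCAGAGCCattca
H4c4: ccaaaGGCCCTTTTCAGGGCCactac

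The hairpin was the same in H3c2, H2bc8 and H2ac8, although H2ac8 stood at 52.2 and 7.27 CPM in BLA and BLA-A, opposite to the other 2. H2ac20 and H4c4 hold variants of it. Since 50 of the 53 members hold the hairpin, its presence could hardly separate members higher in BLA-A from those that were lower. The medians for BLA-A and BLU-A were 2.05 and 0.72 with it, and 0.89 and 0.30 in the 3 genes without it. Those 3 include the replacement histone H1f0, and H2bc21 among them was at 1.65 and -0.22.

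Promoters of the list, 250 bases before to 50 after the start in RefSeq on GRCm38.p6, were searched on both strands for CCAAT and TATAAA, elements known from histone promoters. CCAAT was in 40 of the 48 promoters found for 47 of these genes, against 37.4% of all 32851 promoters, and TATAAA in 27 of 48 against 13.6%. The promoters of the 2 histone genes with the lowest p are printed with both motifs in capitals on either strand, H3c2 at chr13:23752095-23752394 and H2bc8 at chr13:23571150-23571449, both on the plus strand.
H3c2: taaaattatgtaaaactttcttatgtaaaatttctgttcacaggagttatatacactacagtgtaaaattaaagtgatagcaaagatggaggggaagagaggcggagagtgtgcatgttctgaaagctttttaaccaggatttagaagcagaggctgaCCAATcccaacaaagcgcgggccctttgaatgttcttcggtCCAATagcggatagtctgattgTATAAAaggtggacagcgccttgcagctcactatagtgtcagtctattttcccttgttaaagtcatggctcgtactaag
H2bc8: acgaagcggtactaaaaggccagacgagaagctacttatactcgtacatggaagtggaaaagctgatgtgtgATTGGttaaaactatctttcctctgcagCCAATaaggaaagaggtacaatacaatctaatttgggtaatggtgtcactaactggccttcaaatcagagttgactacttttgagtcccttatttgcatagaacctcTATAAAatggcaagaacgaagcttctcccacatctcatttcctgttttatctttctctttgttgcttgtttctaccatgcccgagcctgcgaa

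Each of these 2 promoters held CCAAT at 2 places and TATAAA at 1. A match describes the sequence and does not show that a factor was bound.

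Of 61 genes on the histone list, 53 passed the filter on level, the replacement histone H1f0 among them. Their median log2 fold change was 1.90 in BLA-A against BLA and 0.71 in BLU-A against BLU, beside 0 for all genes. In BLA-A 37 of the 53 were past 2-fold higher and 1 lower (background 13.5% and 11.5%), and in BLU-A 15 were higher and 0 lower (2.93% and 3.58%). Both particle libraries lay above both extract libraries in 45 of 53 genes, against 20.4% of all genes, and 0 of 53 had both below, against 20.9%. Among other protein-coding genes of at least 10 CPM spanning up to 3 kb, those shares were 56.9% and 3.92%. The medians were 1.91 and 0.72 with DESeq2 size factors and 1.66 and 0.70 with total counts, so the direction did not depend on the scaling. In the 2 by 2 test 37 of the 53 had an unadjusted p under 0.05 (5.94% of all genes) and 0 passed the adjustment (lowest adjusted p 0.363, edgeR quasi-likelihood test). H3c2 and H2bc8 passed it with DESeq2, as given above.

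H3 genes showed the widest shift. H3c2 (chr13:23936250-23936869, plus strand, GRCm39) was at 4.33 CPM with BLA and 3.31 with BLU, against 42.1 with BLA-A and 13.4 with BLU-A. H3c8 (chr13:23719592-23720121, plus strand) was at 2.84 and 3.12 CPM with the extracts and at 78.0 and 12.2 CPM with the particles. H3c3 was at 2.38 and 3.66 CPM with the extracts and at 92.6 and 12.1 CPM with the particles. It overlaps 1 gene on the opposite strand, so its reads may not be separate. In each of the 3 genes both particle libraries were above both extract libraries and BLA-A was the highest. Their log2 fold changes were 3.14 ± 0.27, 4.56 ± 0.32 and 5.01 ± 0.35 for blackberry, and 1.87 ± 0.33, 1.81 ± 0.34 and 1.60 ± 0.32 for blueberry, where ± is a 95% interval for counting error only. H3c1 went furthest in blackberry, from 0.311 to 39.02 CPM, and stood at 1.93 and 2.31 CPM in BLU and BLU-A. Over the 11 H3 genes tested the medians were 3.11 and 1.24, and all 11 were above 0 in both fruits (29% of all genes).

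H2B genes were higher in both fruits with 2 exceptions. H2bc8 (chr13:23755570-23756187, plus strand) was at 20.8 CPM with BLA, 24.1 with BLU, 107 with BLA-A and 63.6 with BLU-A. The log2 fold changes were 2.33 ± 0.13 and 1.38 ± 0.13, and the groups did not overlap. All 14 H2B genes tested were past 2-fold higher in BLA-A and 3 in BLU-A, with medians of 2.27 and 0.70, and 12 of 14 were above 0 in both. In H2bc7, at 4.56 and 1.95 CPM with the extracts and at 31.4 and 4.88 CPM with the particles, the blueberry particle library was only slightly above the blackberry extract.

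H2A genes were the most divided family. H2ac20 (chr3:96127677-96128196, minus strand), the most abundant of the genes past 2-fold in both, was at 43.9 and 50.5 CPM with the extracts and at 141 and 105 CPM with the particles, a log2 fold change of 1.67 ± 0.10 and 1.05 ± 0.09. H2ac15 was at 15.8 and 23.4 CPM with the extracts and at 113 and 47.6 CPM with the particles. Both genes overlap 1 gene on the opposite strand, so their reads may not be separate. Against these, H2ac8 was at 52.2 and 62.6 CPM with the extracts and at 7.27 CPM with BLA-A and 109 CPM with BLU-A. H2ac6 and H2ac13 were also lower in BLA-A, with log2 fold changes of -0.34 and -0.20, and higher in BLU-A, with 0.67 and 0.73. The family medians were 0.61 for BLA-A and 0.73 for BLU-A, the only family in which blueberry was not below blackberry.

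H4 and H1 genes lay below H3 and H2B genes in both fruits by their medians. H4c4, the most abundant H4 gene, was at 617, 769, 477 and 1287 CPM for BLA, BLU, BLA-A and BLU-A. It was lower in BLA-A and higher in BLU-A, with log2 fold changes of -0.37 and 0.74, both short of 2-fold. H4c14 was at 18.4 and 13.4 CPM with the extracts and at 95.7 and 27.4 CPM with the particles. The medians of the 12 H4 genes were 1.61 and 0.61, and those of 4 linker histone H1 genes other than H1f0 were 1.01 and 0.56. Among genes of at least 10 CPM, H4c14 was the last inside the 2-fold threshold in both fruits, with 1.01 in blueberry, and H4c18 the first outside it, with 0.97.

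**Figure D2:**
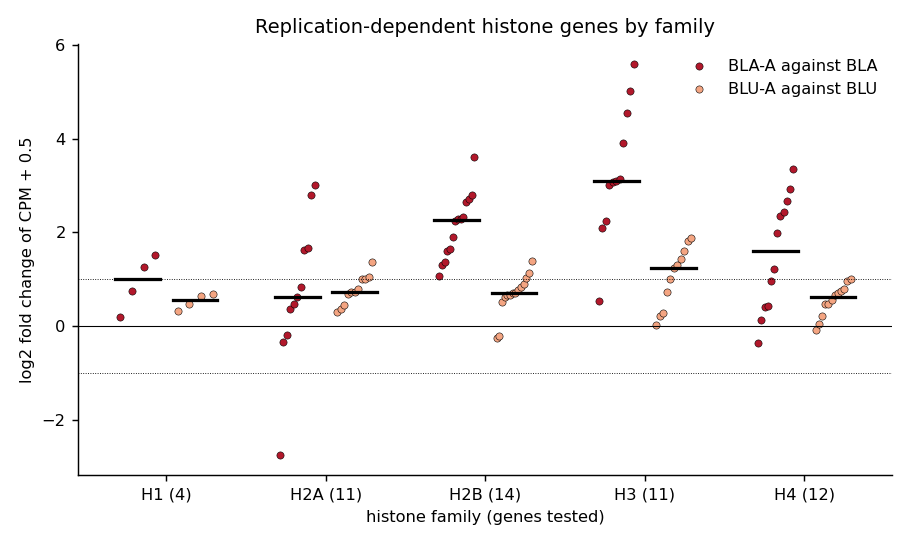
Log2 fold change on CPM plus 0.5 of the replication-dependent histone genes tested, by family, BLA-A against BLA in dark and BLU-A against BLU in light points, each point 1 gene and each bar the family's median. The H3 medians are 3.11 and 1.24 and the H2A medians 0.61 and 0.73, and H2ac8 at -2.76 is the only gene past 2-fold lower.

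The level in untreated cells sets a reference for the direction. Both extracts were below untreated cells in 52 of the 53 histone genes, BLA-A was above untreated cells in 37 and BLU-A in 13. Summed over the list, the level was 6241 CPM in untreated cells, 3004 with BLA, 3674 with BLU, 6519 with BLA-A and 5571 with BLU-A. On the TMM scale the sum of BLU-A was thus between the extracts and untreated cells, and BLA-A was above all of them. The place of BLA-A depends on its TMM factor of 0.870, against 1.04 for untreated cells. Scaled by total counts, the BLA-A sum falls below untreated cells and BLU-A, and stays above both extracts. The count of 37 genes was also taken on the TMM scale.

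**Figure D3:**
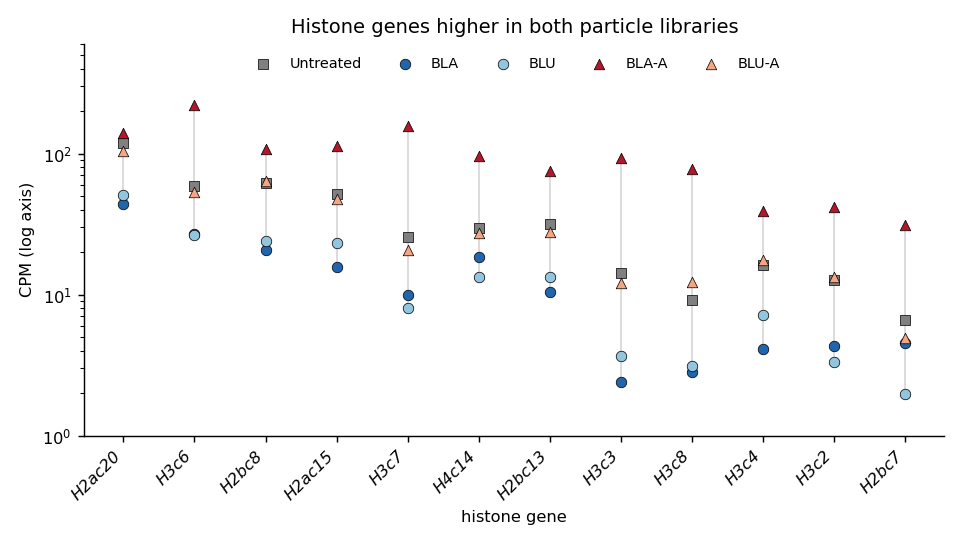
Level in CPM, scaled by TMM and on a log axis, of the 12 histone genes past 2-fold higher in both particle libraries, in each of the 5 libraries. Circles (extracts) lie below triangles (particles) for each gene, BLA-A is the highest library in all 12, and untreated cells lie near BLU-A, as in H3c2 with 12.6 against 13.4 CPM.

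Genes around histone supply moved less by their medians. The replacement histones H2az1, H2az2, H3f3a and H3f3b are spliced and polyadenylated. In BLA-A and BLU-A their log2 fold changes were -0.73 and -0.73 for H2az1 and -1.09 and 0.17 for H2az2. They were -0.31 and 0.37 for H3f3a and 1.24 and 0.28 for H3f3b. Among these only H2az1 moved the same way by a like amount in both, and downward. H1f0, a replacement linker histone also on the histone list, was at 0.89 and 0.41. Of 7 replacement histones tested, 2 were above 0 in both fruits and 1 below 0 in both. Their medians were -0.17 and 0.28. Slbp, which encodes the protein that binds the histone stem-loop, was at 41.9 and 51.5 CPM with the extracts and at 69.3 and 51.3 CPM with the particles. Npat, a coactivator of histone genes in S phase, was at -0.33 and 0.19. Of 10 genes for histone mRNA transcription and processing, 0 passed 2-fold in either fruit. These 2 groups were chosen after the values were seen.

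The DNA replication and G1/S list is the other group tied to S phase. Of its 32 genes 25 were above 0 in both fruits (29% of all genes). Past 2-fold higher were 4 in BLA-A (13.5%) and 0 in BLU-A (2.93%), with medians of 0.50 and 0.21. The median span of the list was 15.8 kb, and protein-coding genes of at least 10 CPM spanning 10 to 30 kb had medians of 0.31 and 0.10. Ccne1, which encodes cyclin E1, was at 6.01 and 3.42 CPM with the extracts and at 11.0 and 6.55 CPM with the particles, a log2 fold change of 0.82 and 0.85. Ccnd1, which encodes cyclin D1, was at 688 and 869 CPM with the extracts and at 1191 and 1001 CPM with the particles, a log2 fold change of 0.79 and 0.20. The proliferation marker Mki67 differed little, with -0.06 and -0.03. The share of cells in S phase was not measured in these files, and in bulk RNA fewer cells of a kind and less RNA per cell cannot be told apart.

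Beyond histones, 2 genes of at least 10 CPM were past 2-fold higher in both fruits. Abcg1, a transporter that moves cholesterol out of cells (chr17:31276649-31336969, plus strand), was at 3.32 CPM with BLA, 3.97 with BLU, 24.0 with BLA-A and 9.08 with BLU-A, with log2 fold changes of 2.68 ± 0.32 and 1.10 ± 0.32. The groups did not overlap, and untreated cells were at 3.84 CPM, near the extracts and not near the particles as in the histone genes. The related transporter Abca1, which is not past 2-fold, was at 12.0 and 9.40 CPM with the extracts and at 22.5 and 12.0 CPM with the particles. Gm16069, a predicted noncoding gene (chr3:89088062-89089600, minus strand), was at 8.02 and 9.05 CPM with the extracts and at 29.7 and 19.3 CPM with the particles. It overlaps Scamp3 on the opposite strand, so reads of the 2 genes may not be separate. Neither passed the 2 by 2 test (adjusted p = 0.769 for both, edgeR quasi-likelihood test).

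Of the listed genes below 10 CPM, Sdf2l1, a partner of chaperones in the endoplasmic reticulum, had the most even shift. It was at 3.94 CPM with BLA, 1.05 with BLU, 18.3 with BLA-A and 6.68 with BLU-A. The log2 fold changes were 2.08 ± 0.30 and 2.21 ± 0.55, the largest smaller-of-the-2 value among the 81 genes higher in both. Its list, the unfolded protein and integrated stress response, had 11 of 31 genes past 2-fold higher in BLA-A (13.5% of all genes) and 1 in BLU-A (2.93%), with medians of 0.57 and 0.18. Hspa5, the main chaperone of that compartment, was at -0.48 and 0.18. Col12a1, a fibril-associated collagen, was at 1.52 and 2.08 CPM with the extracts and at 12.1 and 6.72 CPM with the particles. Hspb1, a small heat shock protein, was at 0.910 and 0.573 CPM against 3.396 and 1.67 CPM.

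A few more shared higher genes, outside the lists, were chosen after their values were seen. Rpp25l, related to a subunit of RNase P and RNase MRP, was at 1.96 CPM with BLA, 1.14 with BLU, 9.87 with BLA-A and 5.57 with BLU-A. Rn7s2, a signal recognition particle RNA present in many near-identical copies, was at 0.957 and 0.936 CPM with the extracts and at 4.89 and 4.14 CPM with the particles. Polr2l, a small subunit shared by the nuclear RNA polymerases, was at 0.8498 and 0.328 CPM against 3.19 and 7.61 CPM. Cptp, a ceramide-1-phosphate transfer protein, was at 6.25 and 4.04 CPM against 20.5 and 8.71 CPM. For each of these genes the particle libraries were above both extract libraries, at levels where counting error is wide.

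Genes lower in both particle libraries were mostly faint, and 61 of the 131 were predicted genes. Gm53858, the only one of at least 10 CPM, was at 14.4 CPM with BLA, 23.8 with BLU, 0.509 with BLA-A and 7.95 with BLU-A, a log2 fold change of -3.89 ± 0.83 and -1.52 ± 0.22. Untreated cells were at 1.31 CPM, below BLA, BLU and BLU-A. Magi2, a scaffold protein of cell junctions and synapses with a span of 1478 kb, was at 7.78 and 20.3 CPM with the extracts and at 2.75 and 6.75 CPM with the particles. Its log2 fold changes were -1.35 ± 0.41 and -1.52 ± 0.24, and both particle libraries were below both extracts. Sorcs1, a sorting receptor of neurons, was at 3.06 and 2.64 CPM against 0.0898 and 1.03 CPM. Tpm2, a tropomyosin, was at 2.13 and 2.47 CPM against 0.584 and 0.445 CPM.

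The following genes, also lower in both, were picked after their values were seen. Robo2, an axon guidance receptor, was at 10.5 CPM with BLA, 11.8 with BLU, 0.928 with BLA-A and 3.42 with BLU-A. Rarb, a retinoic acid receptor, was at 3.79 and 6.59 CPM with the extracts and at 0.883 and 2.88 CPM with the particles. Adcy2, an adenylyl cyclase, was at 2.20 and 18.7 CPM with the extracts and at 0.269 and 6.75 CPM with the particles. In Adcy2 the groups overlap, since BLU-A was above BLA. Its untreated level was 2.25 CPM, so BLU was the library that stood apart.

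By median span, shared higher genes were shorter and shared lower genes longer than all matched genes. Of the 69 shared higher genes with a position in GENCODE, 47 (68.1%) spanned up to 10 kb, against 22.2% of the 15815 matched genes. Of the 109 shared lower genes with a position, 36 (33.0%) spanned over 100 kb, against 15.6%. The median spans were 4.63 kb and 45.8 kb, beside 26.6 kb for all matched genes. Of the shared lower genes, 21.1% spanned up to 10 kb, near the share of all matched genes. Short span was not particular to shared genes. Opposite genes that were higher in BLA-A had a median span of 9.5 kb, with 52.4% up to 10 kb. Opposite genes that were lower in BLA-A had a median of 24.4 kb, with 25.3% up to 10 kb. Of all genes tested, 92.9% had a position.

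By class medians the same order ran through protein-coding genes whether or not they were past 2-fold. Among the 8912 protein-coding genes of at least 10 CPM, those spanning up to 3 kb had a median log2 fold change of 1.02 for BLA-A and 0.30 for BLU-A. The medians were 0.66 and 0.19 at 3 to 10 kb, 0.31 and 0.10 at 10 to 30 kb, and 0.02 and -0.03 at 30 to 100 kb. They were -0.20 and -0.14 at 100 to 300 kb and -0.53 and -0.23 over 300 kb. Each step of length thus went down in both fruits, and the range was wider for blackberry. Single lists could depart from their class. The 78 cytosolic ribosomal protein genes, with a median span of 4.14 kb, had medians of 0.14 for BLA-A and 0.19 for BLU-A. Both particle libraries were above both extracts in 63.5% of genes up to 3 kb and in 3.46% of those over 300 kb, and below both in 3.05% and 65.8%. Without the histone list the shortest class had medians of 0.90 and 0.23, below the 1.90 and 0.71 of the 53 histone genes. The sets are not matched, since 47 of the 53 reached 10 CPM and 50 spanned up to 3 kb. The median span of the histone genes was 0.618 kb. Reads were counted over whole genes with introns, and whether span has a part in the shared shifts was not tested. With each fold change taken relative to the median of its span class, 48 genes were past 2-fold higher in both fruits and 118 lower.

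**Figure D4:**
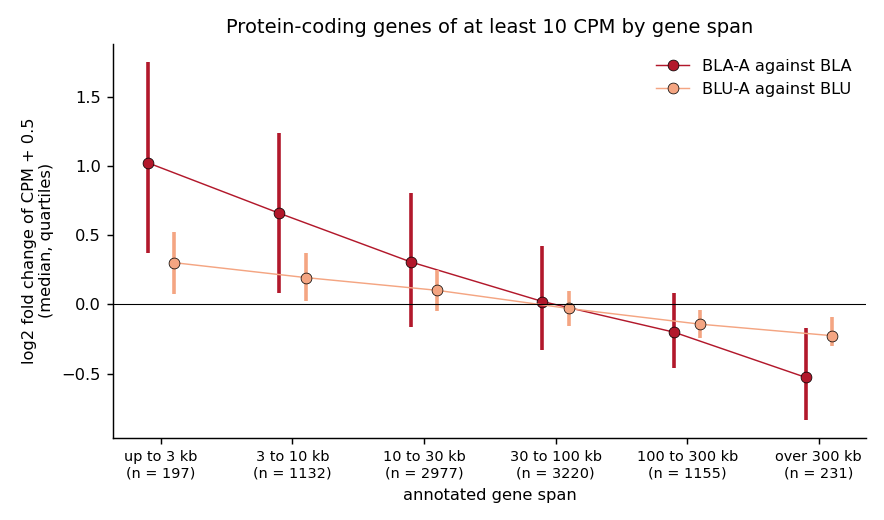
Median log2 fold change on CPM plus 0.5 of protein-coding genes of at least 10 CPM by annotated gene span in 6 classes, with vertical bars from the lower to the upper quartile over genes, for BLA-A against BLA and BLU-A against BLU. Both lines fall from the shortest class, at 1.02 and 0.30, to the longest, at -0.53 and -0.23.

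The list of long neuronal and fragile-site genes gave the same picture by name. All 45 genes were tested, with medians of -1.16 in BLA-A and -0.24 in BLU-A. In BLA-A 24 were past 2-fold lower and 0 higher (11.5% and 13.5% of all genes), and in BLU-A 3 were lower and 1 higher (3.58% and 2.93%). Magi2 and Sorcs1 were the 2 members past 2-fold lower in both. Wwox, a tumor suppressor at a common fragile site, was at 353 and 275 CPM with the extracts and at 261 and 233 CPM with the particles, while Naaladl2 went up, with 0.48 and 0.41.

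Where the fruits disagreed, the larger change was in BLU-A for some genes and in BLA-A for others, such as Rpl13-ps6 and Tmem129. The predicted noncoding gene Gm29677 was at 6.02 CPM with BLA, 3.55 with BLU, 0.748 with BLA-A and 1182 with BLU-A, a log2 fold change of -2.39 and 8.19. Gm41095, also predicted and chosen after its values were seen, was at 1.41, 0.234 and 0.374 CPM in BLA, BLU and BLA-A and at 598 CPM in BLU-A. Spag16, a protein of the axoneme of cilia and flagella, was at 6.47 and 6.68 CPM with the extracts and at 1.26 and 42.8 CPM with the particles. In all 3 genes BLU-A stood alone at the top, far above both extracts.

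Transporters of amino acids and metabolites were among them. Slc25a18, a mitochondrial glutamate carrier (chr6:120750346-120777941, plus strand), was at 6.798 and 7.75 CPM with the extracts, 2.30 CPM with BLA-A and 99.2 CPM with BLU-A. The log2 fold changes were -1.38 ± 0.44 and 3.60 ± 0.20. Slc1a1, a glutamate and cysteine transporter of the plasma membrane (chr19:28812449-28891360, plus strand), was at 10.1 and 9.05 CPM with the extracts, 3.58 CPM with BLA-A and 28.4 CPM with BLU-A. In both genes the plain extracts were close and the particle libraries lay on either side of them. Slc16a3, a lactate exporter, was at 2.67 and 0.562 CPM with the extracts and at 0.928 and 1.67 CPM with the particles, so its extracts parted more than its particles.

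Rpl13-ps6, a processed copy of a ribosomal protein gene, was at 17.0 and 17.8 CPM with the extracts, 0.239 CPM with BLA-A and 59.9 CPM with BLU-A. Its log2 fold changes were -4.57 in BLA-A and 1.72 in BLU-A. Untreated cells were at 50.8 CPM, near BLU-A. Reads of such copies can also match the parent gene and were set aside when not unique, so its level is uncertain. Rpl26, a ribosomal protein gene, was at 10.6 and 9.41 CPM with the extracts and at 4.44 and 19.9 CPM with the particles. Cdh6, a cadherin, was at 1.03 and 0.257 CPM with the extracts and at 0.150 and 10.5 CPM with the particles.

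Among genes higher in BLA-A and lower in BLU-A, only Tmem129 reached 10 CPM. Tmem129, a ubiquitin ligase of the endoplasmic reticulum (chr5:33810560-33815760, minus strand), was at 5.72 CPM with BLA, 8.33 with BLU, 28.4 with BLA-A and 3.41 with BLU-A. The log2 fold changes were 2.22 ± 0.25 and -1.18 ± 0.35, and its untreated level of 9.65 CPM was near the extracts. It overlaps Gm10459 on the opposite strand, which was at 0.0359 and 0.655 CPM with the extracts and at 2.26 and 0.222 CPM with the particles. It also overlaps Tacc3, which was at 0.32 and -0.07 on the log2 scale. Cxcl2 and Ccl20, chemokines that draw neutrophils and CCR6-bearing cells, were the 2 members of the cytokine list that parted. Cxcl2 was at 0.694 and 1.52 CPM with the extracts and at 3.67 and 0.432 CPM with the particles. Ccl20 was at 2.82 and 2.52 CPM against 6.404 and 0.704 CPM. Vwf, the von Willebrand factor gene and a marker of endothelial cells, was at 0 and 2.29 CPM against 1.03 and 0.840 CPM, and its extract libraries differed more than its particle libraries.

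**Figure D5:**
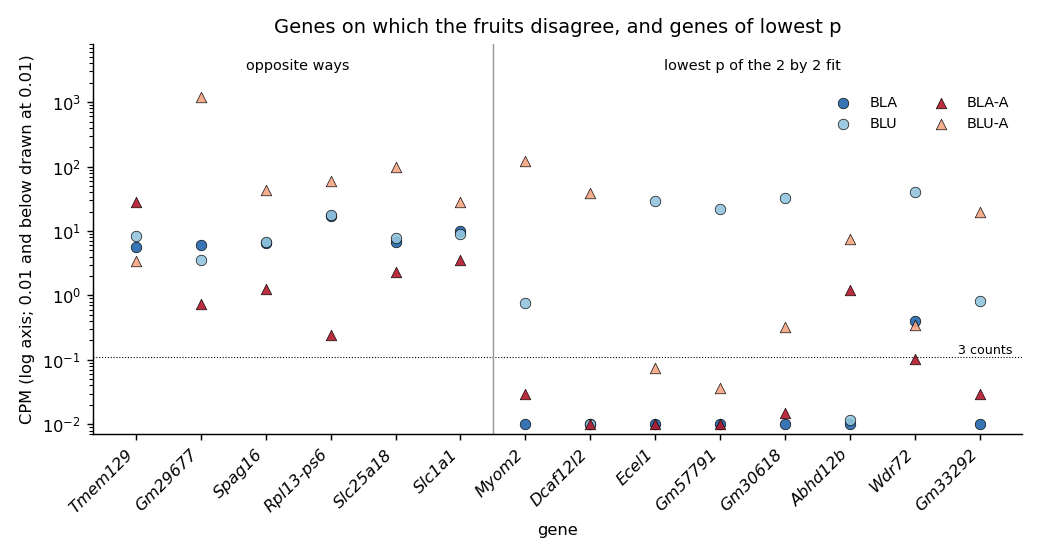
Level in CPM, on a log axis with values of 0.01 and below drawn at 0.01, in the 4 libraries, for 6 genes of at least 10 CPM past 2-fold in opposite ways (left) and for the genes with the lowest p of the 2 by 2 test other than histones (right). On the left the extracts (circles) lie close together between the particle libraries (triangles), and on the right 1 library stands alone for each gene except Abhd12b, as for Myom2 at 122 CPM in BLU-A.

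Most gene lists were shifted in blackberry with little or no match in blueberry. Nuclear-encoded respiratory chain genes had medians of 0.98 and 0.21, with 22 of 47 past 2-fold higher in BLA-A (13.5% of all genes) and 0 in BLU-A (2.93%). Yet 37 of the 47 were above 0 in both (29% of all genes) and 0 were below 0 in both (28.8%). Both particle libraries were above both extracts in 32 (20.4% of all genes). The median span of the list was 9.66 kb. Protein-coding genes of at least 10 CPM spanning 3 to 10 kb had both particle libraries above in 49.9%. Their medians were 0.66 and 0.19, so the blueberry median of the list was near that of its span class. Cox6a1, a subunit of cytochrome oxidase, was at 2.49 and 0.74. The 7 protein genes of the mitochondrial genome that were tested, out of 13, were above both extracts in both particle libraries, with medians of 1.90 and 0.34. COX1 was at 3964, 4542, 14785 and 6094 CPM for BLA, BLU, BLA-A and BLU-A.

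Sterol synthesis genes had 14 of 24 past 2-fold higher in BLA-A and 0 in BLU-A, beside 13.5% and 2.93% of all genes, with medians of 1.16 and 0.20, and 17 were above 0 in both (29% of all genes). AP-1 and immediate early genes had 14 of 29 past 2-fold higher in BLA-A (13.5%) and 0 in BLU-A (2.93%), with medians of 1.00 and 0.23. Ier3, an early response gene, was at 91.9 and 62.0 CPM with the extracts and at 837 and 106 CPM with the particles. Fos was at 1.47 and 0.80. The median span of that list was 5.71 kb. Protein-coding genes of at least 10 CPM spanning 3 to 10 kb had medians of 0.66 and 0.19. Proteasome subunits had medians of 0.69 and 0.19, with 22 of 32 above both extracts in both particle libraries (20.4% of all genes). The sterol and proteasome lists had median spans of 19.0 and 13.9 kb. Protein-coding genes of at least 10 CPM spanning 10 to 30 kb had medians of 0.31 and 0.10. In 35.8% of those genes both particle libraries were above both extracts.

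The remaining lists, cell type markers apart, had blueberry medians between -0.14 (TGF-beta signaling) and 0.19 (cytosolic ribosomal proteins). NRF2 targets and antioxidant enzymes stood at 0.54 and 0.17, with 11 of 33 past 2-fold higher in BLA-A (13.5% of all genes) and 0 in BLU-A (2.93%). Beside the same shares of all genes, lysosome genes stood at 0.79 and 0.08 with 14 of 39 and 0, endocytosis and uptake genes at 0.62 and 0.08 with 8 of 31 and 0, and collagens, laminins and matrix genes at 1.15 and 0.07 with 13 of 24 and 1. Metallothioneins and zinc transporters stood at 0.44 and -0.04. Interferon-stimulated genes stood at -0.03 and 0.14, and PI3K, AKT, mTOR, PAK and JAK/STAT kinase genes at 0.04 and -0.05. The 36 tested genes that the study names for its RNA-seq stood at -0.08 and -0.05, with 0 past 2-fold the same way in both fruits. Since these members were named by the study from these samples, their values are no independent evidence of a direction. In the 2 by 2 test 0 members of the lists passed the adjusted p of 0.05 (edgeR quasi-likelihood test), and 7 of those 36 had an unadjusted p under 0.05 (5.94% of all genes).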

How the data were processed

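RNA was sequenced from 4T1 cells of 5 conditions, 3 columns each. The authors deposited whole-number counts per gene for 40402 genes, not normalized. Per the paper's methods, RNA integrity was high and ribosomal RNA was removed. A supplementary RNA quality report shows lower integrity for samples whose numbers differ from those of the sequenced libraries. RNA integrity was not compared with the fold changes. Per the paper's supplementary run reports, reads were aligned with STAR to GRCm39. OmicsBox counted unique reads over whole genes, overlap mode union, set to the forward strand. The mates were merged and entered as single-end reads, so genes that overlap on opposite strands may share reads. DESeq2 1.36.0 is named in the submitters' processing notes. The authors' fold changes, p-values and enrichment scores were not used.

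Columns of a condition with a chi-square per degree of freedom under 1.5 were averaged. Genes with at least 1 CPM in 1 of the 4 libraries were kept and scaled by TMM (edgeR 4.0.16, R 4.3.3). Log2 fold changes used CPM plus 0.5 and a 2-fold threshold. The 2 by 2 layout (form, fruit) was fitted in edgeR and tested by quasi-likelihood, Benjamini-Hochberg adjusted to 0.05, with DESeq2 1.42.0 as an alternative. Other steps ran in Python 3.11.15 (numpy 2.4.6, pandas 2.3.3). With no label naming separate cultures, p-values measure the spread between these libraries. Intervals cover counting error only.

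In simulated 2 by 2 data on 15039 genes, 200 of them were changed. The test recovered 100% of 4-fold changes at a coefficient of variation of 0.2 and 31.5% at 0.4, and 100% and 99.5% of 16-fold changes. False calls numbered 11 and 6 at 4-fold, and 8 and 3 at 16-fold. The simulation gave all genes the same spread and both fruits the same fold. In the real libraries the fruits disagree, so these shares may not hold for them.

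Named genes have a mean of at least 10 CPM and the largest smaller-of-2 shift (10 per direction, 5 per opposite orientation, at most 2 predicted genes each), the 10 lowest p, list members past 2-fold in both fruits, or, for a described list, up to 4 members of highest level or shared shift. Any other gene was picked once its values had been seen. The 48 lists and the comparison itself were chosen with earlier results of these data known. Positions are from GENCODE M39 (GRCm39), matched by symbol for 15815 of 17030 genes.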

Additional observations from a re-analysis of the deposited data

Results flagged for a closer look

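In 12 named genes both fruits were past 2-fold in opposite ways, and with 1 library per condition the difference was not tested. The log2 fold change of BLA-A against BLA minus that of BLU-A against BLU was 3.39 for Tmem129, 2.92 for Cxcl2, 2.38 for Ccl20 and 2.68 for Vwf, which were higher in BLA-A and lower in BLU-A. It was -10.58 for Gm29677, -4.58 for Spag16, -6.29 for Rpl13-ps6, -4.98 for Slc25a18, -2.98 for Slc1a1, -2.18 for Slc16a3, -2.21 for Rpl26 and -5.09 for Cdh6, which were lower in BLA-A and higher in BLU-A. Slc25a18 overlaps Atp6v1e1 on the opposite strand, which was at 37.4 and 44.3 CPM with the extracts and at 40.4 and 40.7 CPM with the particles. Slc1a1 overlaps Spata6l, at 6.95 and 5.41 CPM against 7.80 and 7.78 CPM.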

How the results depend on the processing

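The count of genes changed in the 2 by 2 test was 2, and it depended on nearly every choice: 4 with DESeq2 size factors, 117 with total counts, 1 at a mean of at least 1 CPM and 1 at 10 CPM, 202 without a filter, 29 with the likelihood ratio test, 22 with DESeq2 and 0 without the fruit term. Leaving out a replicate number or a whole library gave 0 to 4146. The replicate numbers did not pair the samples (mean correlation of same-numbered deviations -0.0002), and with 12 columns as samples the count was 10814 without and 9499 with the replicate block.

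Past 2-fold, BLA-A against BLA (4249) became 1714 at a mean of at least 10 CPM, 2430 with 2 CPM added, and 8090 and 609 at 1.5-fold and 4-fold, and BLU-A against BLU (1109) became 545 at a mean of at least 1 CPM, 38 at 10 CPM, 1689 without a filter, 129 with 2 CPM added, and 2980 and 84. Genes shifted the same way (212) became 11 at a mean of at least 10 CPM, 401 and 19 with 0.25 and 2 CPM added, and 1019 and 2 at 1.5-fold and 4-fold. Opposite genes (135) became 9, 283 and 10, and 620 and 2 under those settings. The 11 and 9 come from TMM factors refitted on fewer genes. Relative to genes of the same span class, chosen after seeing the data, the counts were 166 (48 higher) and 109. With total counts 1612 genes were higher and 2818 lower in BLA-A against BLA. Leaving out a replicate number gave 4262 to 4272, 1104 to 1138, 206 to 215 and 134 to 142. Of the values of single genes under alternatives, 0 changed sign past 2-fold.

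With 1 library per condition, depth limits only faint genes, and differences between cultures were not measured.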
